A study of Mus musculus with 6 samples.

Results

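Interleukin 15 (Il15), its private receptor chain (Il15ra) and 7 other factors that muscle is known to secrete (Fndc5, Bdnf, Fgf21, Metrnl, Ostn, Apln and Nampt) were followed in engineered muscle exposed to tumour necrosis factor alpha (TNF-alpha). The members are the 9 rows with these symbols among the 24421 rows of the deposited count table, and all 9 passed the filter on low counts. One group of 3 constructs received TNF-alpha (100 ng/mL) for 72 h, and another group of 3 received the vehicle, phosphate-buffered saline. Every construct was built from C2C12 cells, a line of mouse myoblasts that fuse into contractile myotubes, embedded in a collagen I gel held by artificial tendons and differentiated in horse serum medium. The labels call them biological replicates without saying whether the cells were cultured separately, and each p-value therefore reflects only how these 6 constructs varied. No motor nerve, vessel or other cell source is named in the labels, which limits the constructs as a model of whole muscle.

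The term myokine covers proteins and peptides that muscle fibres release and that act on the fibre itself or on fat, bone, nerve, liver or immune cells. Interleukin 15 is presented on the cell surface by its alpha chain to cells that carry the beta and gamma chains it shares with interleukin 2, and it is known for sustaining natural killer cells and memory T cells. Irisin (cut from the Fndc5 product), musclin (Ostn), apelin (Apln), meteorin-like (Metrnl), brain-derived neurotrophic factor (Bdnf) and fibroblast growth factor 21 (Fgf21) have been described as factors that change with exercise, training or metabolic stress, and Nampt encodes an enzyme of NAD synthesis that is also found outside cells.

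The libraries held 81713008 to 93533748 counts. Skeletal muscle transcripts were abundant in both groups: 8 fibre markers (Ckm, Acta1, Myh3, Ttn, Des, Actn2, Tnnt3 and Myog) summed to 7530 to 8712 CPM (counts in a library scaled by TMM to 1e6 counts) in TNF-alpha libraries and 11259 to 13035 CPM in vehicle libraries, and 6 of the 8 fell while 1, Myog, rose. The fall of Des was narrow (adjusted p = 0.0497) and was lost in 10 of its 14 alternatives. Among the leukocyte markers, Ptprc, Adgre1 and Cd3e, which define leukocytes, macrophages and T cells, had mean levels of at most 0.0339 CPM in either group. The summed level of the 6 leukocyte markers in the table was 20.8 to 22.5 CPM in TNF-alpha libraries and 5.29 to 5.55 CPM in vehicle libraries, nearly all of it Cd68, which rose, as did Csf1r. The 5 fibroblast genes summed to 4389 to 5353 CPM in TNF-alpha libraries and 6312 to 6920 CPM in vehicle libraries (4 fell and 1, Pdgfra, rose). Nearly all of that sum was Col3a1, which fell 1.36-fold, while Col1a1, Dpt and Pi16 fell 2.53-fold, 47.3-fold and 41.0-fold. The rise of Pdgfra (adjusted p = 0.0251) was lost in 5 of its 14 alternatives, with adjusted p-values of 0.0522 to 0.0737. Endothelial, neuronal and adipocyte lists of 4 genes each summed to at most 1.59, 0.84 and 0.07 CPM in TNF-alpha libraries. In vehicle libraries they summed to at most 3.63, 2.64 and 0.299 CPM. Tek and Syt1 fell and Elavl3 rose, the last not without TNF-alpha replicate 2 (adjusted p = 0.0508). Most of the endothelial sum in vehicle libraries was Tek (mean 2.45 CPM). Pecam1 was higher in every TNF-alpha library but did not pass (adjusted p = 0.0664), and neither did Cdh5 (0.803). In a bulk sample, fewer cells of a type and less RNA per cell cannot be told apart.

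Most of the 9 transcripts moved, and they moved in both directions. Il15, Fndc5, Bdnf, Fgf21 and Ostn fell in TNF-alpha constructs, Apln and Nampt rose, and Il15ra and Metrnl did not pass the test. The test was edgeR's quasi-likelihood test, with p-values adjusted by Benjamini-Hochberg over all 15795 genes tested and a threshold of 0.05. Of all genes tested, 55.5% passed, 27.6% upward and 27.9% downward. Against that background, 7 of the 9 members passed, 2 of them upward and 5 downward. The median log2 fold change was -0.59 over the 9 members and 0.00 over all genes tested. A called change of at least 2-fold was found in 5 of the 9 members and in 17.9% of the genes tested. The members, and the gene lists below, were chosen with earlier results of these data known. Their shares and medians are therefore no test of such factors as a class.

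**Figure D1:**
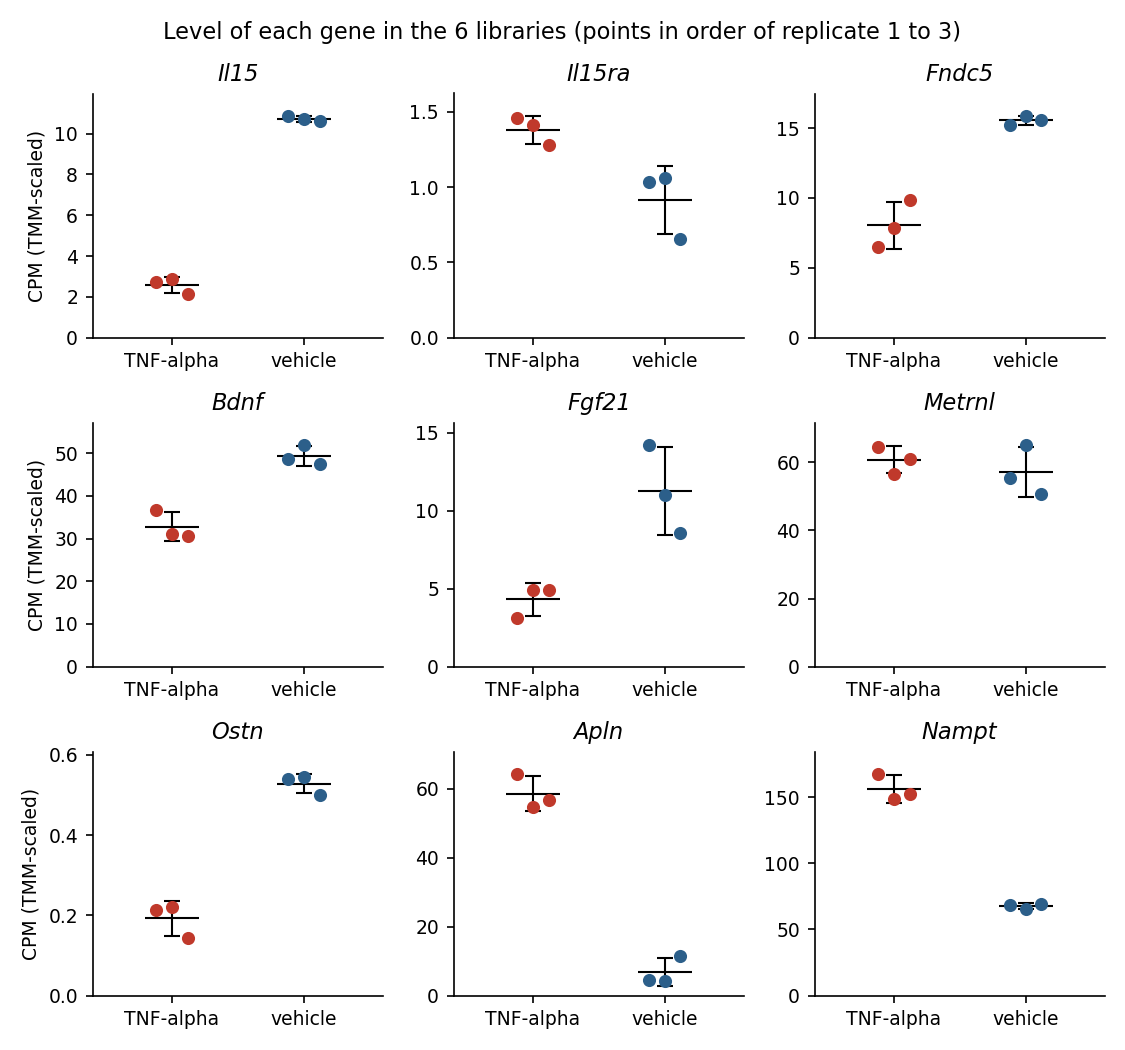
Level of each of the 9 genes in every library, in CPM scaled by TMM on an axis from 0, with TNF-alpha at the left and vehicle at the right of each panel. Points are single libraries, and the black lines are the mean and SD of 3 libraries. The groups are apart in 8 of the 9 panels and overlap in that of Metrnl.

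The ranges of the 2 groups were separate in 8 of the 9 members, as they were in 64.5% of the genes tested. Metrnl was the member whose groups overlapped.

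Il15 had the largest fall of the 9. The gene lies on GRCm38 chromosome 8, 82331632 to 82403222, on the minus strand, and GENCODE lists 10 transcripts for it. Its levels were 2.71, 2.87 and 2.15 CPM in TNF-alpha libraries, against 10.9, 10.7 and 10.6 CPM in vehicle libraries. The vehicle libraries lay within a narrow band, and every TNF-alpha library was far below it. Il15 fell 4.16-fold (log2 fold change -2.06 ± 0.13 SE, 95% interval -2.36 to -1.76, adjusted p = 4.6e-06). The levels rest on 180 to 253 counts in TNF-alpha libraries and 906 to 1003 counts in vehicle libraries. Only 3.46% of the genes tested had a lower log2 fold change. Of the 8 fibre markers named above, 6 fell in the same libraries, Acta1 did not pass the test (adjusted p = 0.759) and Myog rose, and their part in the fall of Il15 was not tested.

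Il15ra, the chain that binds interleukin 15 with high affinity and presents it (chromosome 2, 11705290 to 11734317, plus strand), had no lower level in TNF-alpha libraries. It had 1.46, 1.41 and 1.28 CPM in TNF-alpha libraries, against 1.03, 1.06 and 0.652 CPM in vehicle libraries. The groups did not overlap, but vehicle replicate 3 was well below the other two vehicle libraries. The estimate was a 1.51-fold higher level (log2 fold change 0.60 ± 0.23 SE, 95% interval 0.07 to 1.12) with an adjusted p of 0.0548, just outside the threshold. Without vehicle replicate 3 the log2 fold change was 0.40 (adjusted p = 0.139), whereas with limma-voom (adjusted p = 0.0457) and with a stricter filter on low counts (adjusted p = 0.0458) it passed. Over its 14 alternatives the adjusted p ranged from 0.0457 to 0.139.

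Taken within each library, where scaling cancels, the ratio of ligand to receptor chain was lower in every TNF-alpha library. There were 1.86, 2.03 and 1.68 Il15 counts for each Il15ra count in TNF-alpha libraries, against 10.5, 10.1 and 16.3 in vehicle libraries. The groups were far apart, with vehicle replicate 3 highest. The mean log2 ratio was 0.89 ± 0.14 in TNF-alpha libraries and 3.59 ± 0.38 in vehicle libraries (SD, n = 3 each), a difference of -2.70. An exact two-sided permutation test gave p = 0.1, the smallest that 3 against 3 libraries allow. Il15 was lower and Il15ra higher in every TNF-alpha library, so the ratio had to separate the groups. The test therefore adds nothing to the results of each gene alone. These ratios are not corrected for transcript length.

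A list of 8 genes was examined, for chains and signalling proteins that act after interleukin 15 binds (Il2rb, Il2rg, Jak1, Jak3, Stat3, Stat5a and Stat5b) and for a protease (Adam17). Of these, 4 rose, 2 fell and 2 did not pass the test, with a median log2 fold change of 0.32 against 0.00 over all genes. Over all genes, 27.6% rose and 27.9% fell. Here and in what follows, ± after a change is its SE and ± after a CPM level is the SD of 3 libraries. Adam17, a protease that sheds receptor ectodomains, rose by 0.48 ± 0.06 log2 units (adjusted p = 1.6e-04). Jak3, the kinase bound to the gamma chain, rose to 8.95 ± 0.70 CPM in TNF-alpha libraries, against 4.33 ± 0.51 CPM in vehicle libraries (log2 fold change 1.05 ± 0.13, adjusted p = 1.63e-04). Jak1 and Stat3 also rose. Stat5b, a transcription factor of the pathway, fell by 0.48 ± 0.10 log2 units (adjusted p = 0.00307).

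Il2rb, the beta chain gene, was at a low level and was the other member of the list that fell, with 0.932 ± 0.166 CPM in TNF-alpha libraries and 1.45 ± 0.31 CPM in vehicle libraries (adjusted p = 0.048). That call was lost with limma-voom (adjusted p = 0.0578), with the replicate block (0.0749) and without any single library other than vehicle replicate 3 (0.0537 to 0.149). Il2rg, the gamma chain gene, had 11.3 ± 2.5 and 8.83 ± 1.25 CPM in TNF-alpha and vehicle libraries and did not pass (log2 fold change 0.35, 95% interval -0.04 to 0.74, adjusted p = 0.113), although without TNF-alpha replicate 1 it did (adjusted p = 0.0402).

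**Figure D2:**
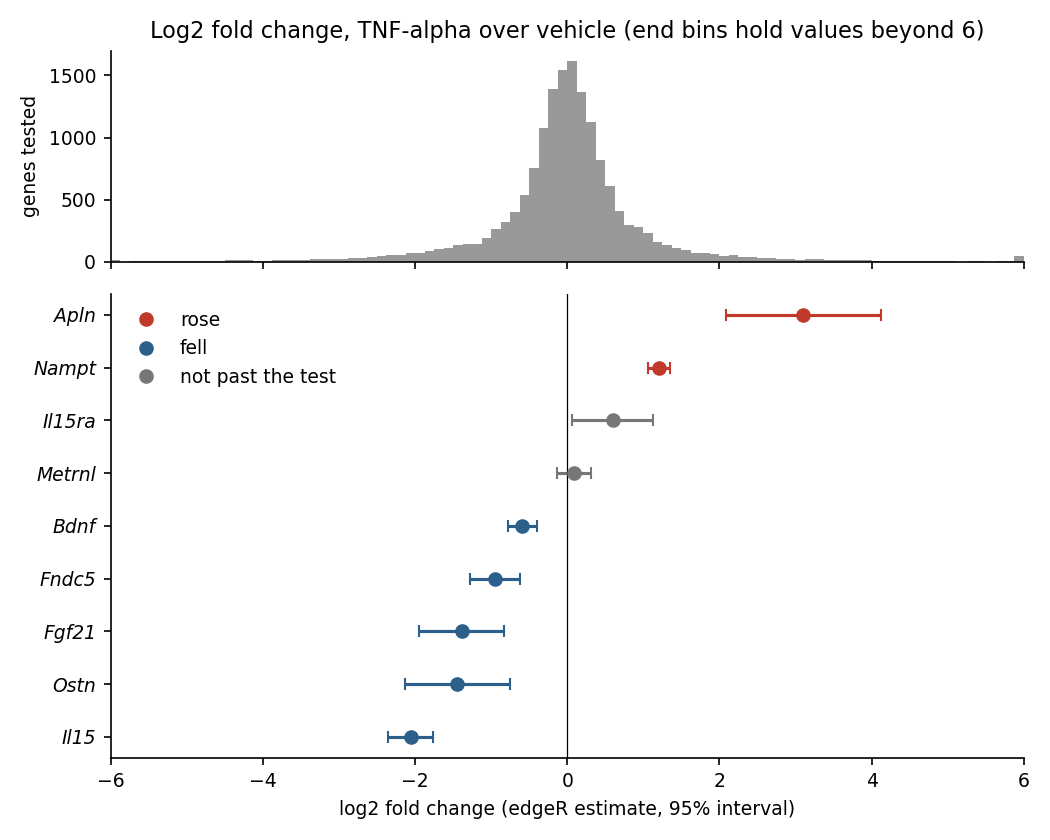
Upper panel, number of genes tested by log2 fold change of TNF-alpha over vehicle, with values beyond 6 in the end bins. Lower panel, the edgeR log2 fold change of each of the 9 genes with its 95% interval, from Apln (3.10) at the top to Il15 (-2.06) at the bottom, with rises in red, falls in blue and changes not past the test in grey.

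The other 4 transcripts that fell encode an irisin precursor, a neurotrophin, an endocrine growth factor and a peptide hormone. Fndc5 (chromosome 4, 129136999 to 129144593, plus strand) encodes the membrane protein from which irisin is released. It had 6.49, 7.86 and 9.83 CPM in TNF-alpha libraries, against 15.2, 15.9 and 15.6 CPM in vehicle libraries. The TNF-alpha libraries spread more widely than the vehicle libraries, and all were lower. The fall was 1.93-fold (log2 fold change -0.95 ± 0.14 SE, adjusted p = 5.56e-04).

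Bdnf encodes a neurotrophin that signals through the receptor TrkB (chromosome 2, 109674700 to 109727007, plus strand). It had 36.6, 31.0 and 30.6 CPM in TNF-alpha libraries, against 48.6, 52.0 and 47.4 CPM in vehicle libraries. It showed the smallest of the 5 falls, 1.51-fold (log2 fold change -0.59 ± 0.08 SE, adjusted p = 3.76e-04), with groups that did not overlap. GENCODE places an antisense gene, Gm45346, over 14.4% of the Bdnf exon bases, and the use of strand in counting is not given in the sources used here, so reads of the pair cannot be told apart.

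Fgf21, an endocrine growth factor that needs the co-receptor beta-klotho, lies on chromosome 7 (45613886 to 45615490, minus strand). It had 3.09, 4.91 and 4.94 CPM in TNF-alpha libraries, against 14.2, 11 and 8.58 CPM in vehicle libraries. Both groups were spread, with a coefficient of variation of 24.5% in TNF-alpha libraries and 25.2% in vehicle libraries, yet the highest TNF-alpha library was below the lowest vehicle library. The fall was 2.61-fold (log2 fold change -1.39 ± 0.24 SE, adjusted p = 0.00182).

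Ostn, which encodes the natriuretic-peptide-like hormone musclin or osteocrin, was rare in these constructs (chromosome 16, 27307489 to 27351212, plus strand). It had 20, 19 and 12 counts in TNF-alpha libraries, against 45, 51 and 46 counts in vehicle libraries. Exact Poisson 95% intervals, which cover counting error only, were 12.2 to 30.9, 11.4 to 29.7 and 6.2 to 21 counts in TNF-alpha libraries, and the lowest vehicle interval began at 32.8 counts. The fall was 2.72-fold (log2 fold change -1.44 ± 0.30 SE, adjusted p = 0.00345). An antisense gene, Gm32312, overlaps 12.9% of the Ostn exon bases, with the same limit on strand.

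Apln and Nampt were the members that rose. Apln encodes apelin, a peptide ligand of the receptor Aplnr with known actions on vessels, heart and muscle (chromosome X, 48025146 to 48034853, minus strand). Its levels were 64.4, 54.7 and 56.8 CPM in TNF-alpha libraries, against 4.62, 4.27 and 11.5 CPM in vehicle libraries. Vehicle replicate 3 was more than the sum of the other two vehicle libraries, and still far below every TNF-alpha library. Apln rose 8.6-fold (log2 fold change 3.10 ± 0.41 SE, 95% interval 2.08 to 4.13, adjusted p = 0.00139), and 98.7% of the genes tested had a lower log2 fold change. Without vehicle replicate 3 the log2 fold change was 3.71 (adjusted p = 2.38e-07).

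Nampt encodes the rate-limiting enzyme of the route that rebuilds NAD from nicotinamide (chromosome 12, 32819545 to 32853349, plus strand). It had 168, 148 and 152 CPM in TNF-alpha libraries, against 68.3, 65.3 and 69.4 CPM in vehicle libraries. The groups were tight and well apart. Nampt rose 2.31-fold (log2 fold change 1.21 ± 0.07 SE, 95% interval 1.06 to 1.35, adjusted p = 1.95e-06).

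Metrnl, encoding meteorin-like, a secreted factor of muscle and fat (chromosome 11, 121701544 to 121716306, plus strand), did not pass the test. Its levels were 64.6, 56.7 and 61.0 CPM in TNF-alpha libraries, against 55.5, 65.2 and 50.7 CPM in vehicle libraries. The ranges overlapped, and the log2 fold change was 0.09 (95% interval -0.13 to 0.31, adjusted p = 0.46), which leaves room for changes in either direction within those bounds.

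Promoter sequence is shown for the 2 transcripts that rose and for Fgf21, a fallen member with matches to 3 of 4 motifs in 1 window. RefSeq promoter windows on GRCm38.p6, from 250 bases before to 50 after a start site, were found for 7 of the 9 members (Il15 and Ostn were the exceptions), 14 windows in all. The motifs searched on both strands were TGATGNAA for ATF4, ACGTG for the hypoxia-responsive core, and by name the NF-kB and interferon regulatory factor motifs, and matches are in capitals.
Apln, chrX:48034804-48035103, minus strand: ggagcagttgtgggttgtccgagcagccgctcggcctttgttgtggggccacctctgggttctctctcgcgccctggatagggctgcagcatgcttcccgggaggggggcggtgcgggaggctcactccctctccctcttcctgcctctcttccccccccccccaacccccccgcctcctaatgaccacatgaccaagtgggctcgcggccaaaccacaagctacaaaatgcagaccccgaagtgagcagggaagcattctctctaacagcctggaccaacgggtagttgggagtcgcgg
Nampt, chr12:32820085-32820384, plus strand: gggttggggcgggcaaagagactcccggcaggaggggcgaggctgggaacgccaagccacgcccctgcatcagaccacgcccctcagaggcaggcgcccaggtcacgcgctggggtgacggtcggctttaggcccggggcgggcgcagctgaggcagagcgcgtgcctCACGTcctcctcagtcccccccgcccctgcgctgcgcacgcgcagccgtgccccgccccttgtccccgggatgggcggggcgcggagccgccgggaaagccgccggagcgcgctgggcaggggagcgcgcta
Fgf21, chr7:45615441-45615740, minus strand: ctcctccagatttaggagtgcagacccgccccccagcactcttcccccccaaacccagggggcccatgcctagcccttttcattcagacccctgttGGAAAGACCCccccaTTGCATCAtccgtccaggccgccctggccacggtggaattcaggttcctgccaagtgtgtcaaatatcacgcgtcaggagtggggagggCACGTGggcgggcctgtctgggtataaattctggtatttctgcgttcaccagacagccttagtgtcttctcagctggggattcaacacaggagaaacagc
The Apln window held none of the 4 motifs, which says only that these letters are not in this window. The Nampt window held the hypoxia-responsive core at position -82, read as CACGT on the strand shown. The Fgf21 window held an NF-kB match at -154 (GGAAAGACCC), an ATF4 match at -139 (TTGCATCA) and a palindrome, CACGTG, that contains the hypoxia-responsive core on both strands at -50 and -49. Of all 32851 windows, 1.63% held the NF-kB motif, 3.97% the ATF4 motif, 19.6% the hypoxia-responsive core and 3.44% the interferon regulatory factor motif. Among the other members, Fndc5 held the hypoxia-responsive core, and windows of Bdnf, which has 7, held the core, the ATF4 motif and the interferon regulatory factor motif. A match describes the letters and is not a site shown to be bound.

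Levels of different genes were set side by side in CPM per kilobase of exon. In TNF-alpha libraries the order was Metrnl (38.3 ± 2.5), Nampt (30.9 ± 2.0), Apln (18.6 ± 1.6), Bdnf (5.27 ± 0.54), Fgf21 (4.54 ± 1.11), Fndc5 (2.92 ± 0.61), Il15 (1.14 ± 0.17), Il15ra (0.311 ± 0.021) and Ostn (0.136 ± 0.030), as mean ± SD of 3 libraries. Bdnf overlapped Fgf21, and Fgf21 overlapped Fndc5. In vehicle libraries the order was Metrnl (36.0 ± 4.6), Nampt (13.4 ± 0.4), Fgf21 (11.9 ± 3.0), Bdnf (7.93 ± 0.38), Fndc5 (5.63 ± 0.12), Il15 (4.75 ± 0.06), Apln (2.16 ± 1.30), Ostn (0.371 ± 0.017) and Il15ra (0.206 ± 0.051), and only Nampt and Fgf21 overlapped as neighbours. Apln therefore stood in place 3 in TNF-alpha libraries and in place 7 in vehicle libraries, and Ostn and Il15ra exchanged the last places. Length here counts the exon bases of all annotated transcripts, 4446 bases over 18 transcripts for Il15ra and 1423 over 1 for Ostn. In CPM alone, Il15ra was above Ostn in both groups (TNF-alpha 1.38 against 0.193, vehicle 0.914 against 0.528). That exchange thus rests on the lengths used.

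**Figure D3:**
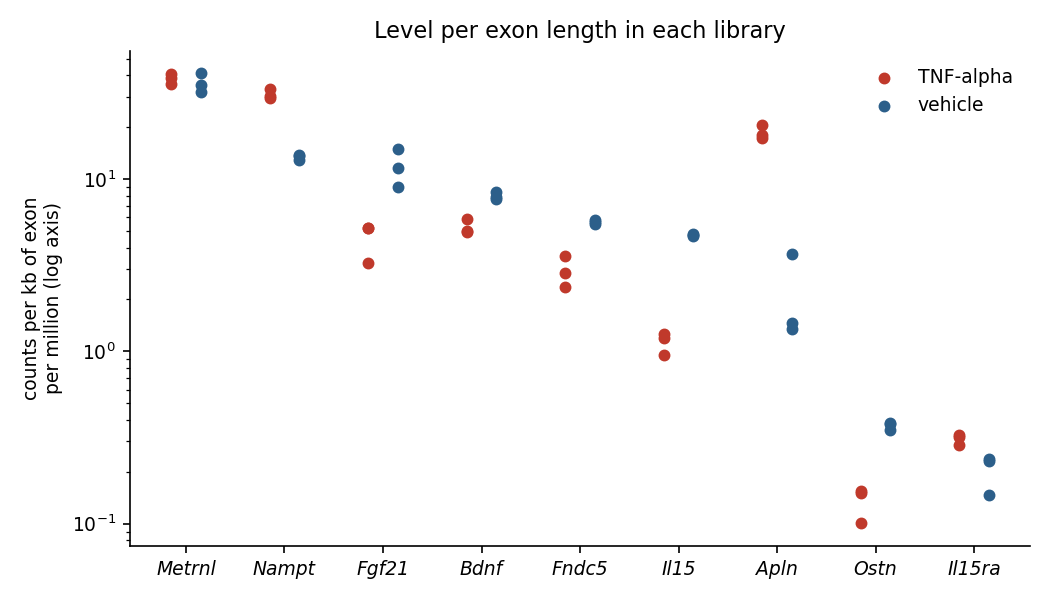
Level of each gene in CPM per kilobase of exon, on a log axis, with TNF-alpha libraries in red to the left of vehicle libraries in blue and genes ordered by their vehicle mean. Each point is 1 library. Apln stands out of the order in TNF-alpha libraries, at 18.6 against 2.16 in vehicle libraries.

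Receptors and processing enzymes of the other factors were listed as 18 genes, of which 14 were tested. Of these, 3 rose, 7 fell and 4 did not pass, with a median log2 fold change of -0.18, beside 27.6% upward and 27.9% downward over all genes. The fall of Pcsk7, a proprotein convertase gene chosen after its values were seen (log2 fold change -0.17 ± 0.06, adjusted p = 0.0356), was lost in 5 of its 14 alternatives, with adjusted p-values of 0.0603 to 0.111. Npr3, the clearance receptor that musclin binds, rose to 76.6, 93.1 and 90.4 CPM in TNF-alpha libraries, against 1.99, 2.5 and 1.86 CPM in vehicle libraries. The rise was 40.8-fold (log2 fold change 5.35 ± 0.13, adjusted p = 4.35e-08), so the musclin receptor rose in the same libraries in which Ostn fell. Npr1, the guanylyl cyclase receptor of atrial natriuretic peptide, fell by 1.72 ± 0.29 log2 units (adjusted p = 0.00103). Npr2, its relative for C-type natriuretic peptide, had 57.4 ± 3.7 and 50.2 ± 3.4 CPM in TNF-alpha and vehicle libraries and did not pass (adjusted p = 0.0525). It passed in 4 of its 14 alternatives, with adjusted p-values of 0.0243 to 0.0477.

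The integrin pair reported to bind irisin moved in opposite directions. Itgb5 fell to 162 ± 10 CPM in TNF-alpha libraries, against 351 ± 41 CPM in vehicle libraries (log2 fold change -1.11 ± 0.09, adjusted p = 1.94e-05), while Itgav, chosen after its values were seen, rose by 0.62 ± 0.07 log2 units (adjusted p = 7.89e-05). For apelin, the receptor gene Aplnr had 23 to 33 counts in TNF-alpha libraries and 40.8 to 60 counts in vehicle libraries (log2 fold change -0.89 ± 0.28, adjusted p = 0.025), and it was also chosen after its values were seen. Its call was lost without TNF-alpha replicate 1 (adjusted p = 0.0692), TNF-alpha replicate 3 (0.0867), vehicle replicate 2 (0.0671) or vehicle replicate 3 (0.0696). The other apelin receptor ligand, Apela, had 0 counts in all 6 libraries, and Ntrk2, the receptor of Bdnf, was too low to be tested.

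For Fgf21, the receptor gene Fgfr1 was abundant and did not pass the test (456 ± 5 CPM in TNF-alpha libraries and 513 ± 53 CPM in vehicle libraries, adjusted p = 0.113; without vehicle replicate 3 it passed, at 0.0189), while Klb, encoding the co-receptor beta-klotho, was near the limit of detection at a mean of 0.167 CPM in TNF-alpha libraries and 0.14 CPM in vehicle libraries. Fap, encoding a protease that cleaves FGF21, had 6, 17 and 0 counts in TNF-alpha libraries, against 174, 106 and 147 counts in vehicle libraries (log2 fold change -4.18 ± 0.72, adjusted p = 0.00203). The Fap values were lower in every TNF-alpha library. Without TNF-alpha replicate 2 its log2 fold change was -5.52 (adjusted p = 7.2e-04), and with limma-voom it was -5.12. These 3 genes were chosen after their values were seen.

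**Figure D4:**
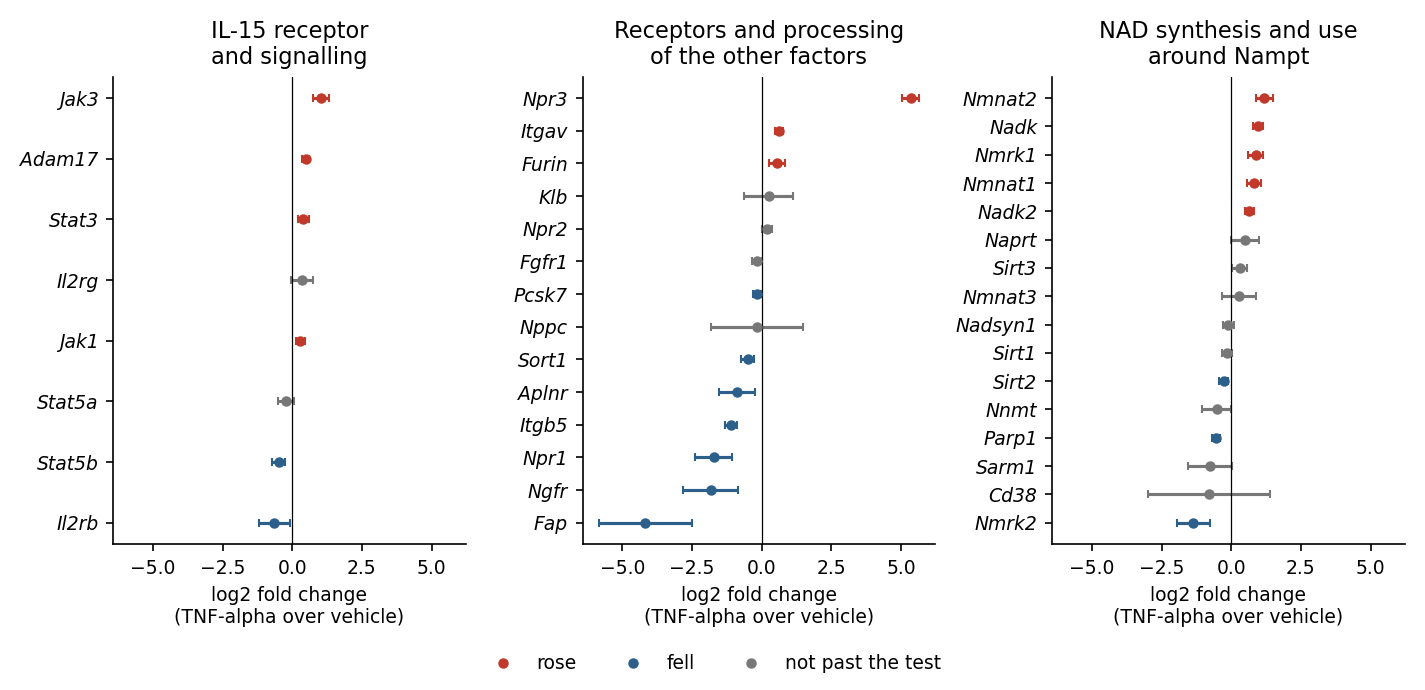
Log2 fold change of TNF-alpha over vehicle with its 95% interval for the tested genes of 3 lists, the interleukin 15 receptor and signalling genes, the receptors and processing enzymes of the other factors, and the genes of NAD synthesis and use. Red marks rises, blue falls and grey changes not past the test, and Npr3 at 5.35 and Fap at -4.18 lie at the ends.

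Around Nampt, 17 genes of NAD salvage and use were listed. Of the 16 tested, 5 rose, 3 fell and 8 did not pass, with a median log2 fold change of 0.09, so the share that passed was no higher than the 55.5% over all genes. The 5 that rose were Nadk and Nadk2, the NAD kinases, Nmnat1 and Nmnat2, which complete NAD from the product of Nampt, and Nmrk1, a nicotinamide riboside kinase. Other genes of NAD synthesis did not pass, namely Nmnat3 (adjusted p = 0.412), Naprt (0.086) and Nadsyn1 (0.367). Nadk rose to 235 ± 21 CPM in TNF-alpha libraries, against 120 ± 5 CPM in vehicle libraries (log2 fold change 0.96 ± 0.08, adjusted p = 1.57e-05), and Nadk2 rose by 0.65 ± 0.07 log2 units (adjusted p = 1.04e-04). Nmnat2 rose by 1.19 ± 0.13 log2 units (adjusted p = 1.46e-04).

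The 3 genes of that list that fell were Parp1 and Sirt2, whose enzymes consume NAD, and Nmrk2, the nicotinamide riboside kinase known for its expression in muscle. Parp1 had a log2 fold change of -0.53 ± 0.06 (adjusted p = 1.5e-04). The fall of Sirt2 (log2 fold change -0.26 ± 0.07, adjusted p = 0.0124) was lost without TNF-alpha replicate 3 (0.051). Nmrk2 had 2.51, 5.36 and 4.55 CPM in TNF-alpha libraries, against 11, 11.3 and 9.77 CPM in vehicle libraries, and fell by 1.37 ± 0.25 log2 units (adjusted p = 0.00275). The muscle-type kinase thus fell and its relative Nmrk1 rose (log2 fold change 0.88 ± 0.12, adjusted p = 2.8e-04). The remaining tested genes did not pass: Sirt1 (adjusted p = 0.163), Sirt3 (0.0671), Cd38 (0.499), Sarm1 (0.0918) and Nnmt (0.0863). Sirt3 passed as a rise with DESeq2 (0.0485) and without vehicle replicate 3 (0.0251). Sarm1 passed as a fall without TNF-alpha replicate 1 (0.0301) or vehicle replicate 3 (0.0486). Nmnat1, Nmnat2, Nmnat3, Naprt, Nadsyn1, Sirt1, Sirt2, Sirt3, Cd38, Sarm1, Nnmt, Nmrk1 and Nmrk2 were chosen after their values were seen.

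Transcription factors reported elsewhere to act on one or more of the 9 genes were also listed. Of 16 tested, 8 rose, 5 fell and 3 did not pass, with a median log2 fold change of 0.12. Over all genes tested, 55.5% passed, 27.6% upward and 27.9% downward, with a median of 0.00. Ppard, a nuclear receptor of fatty acid metabolism, rose by 1.99 ± 0.08 log2 units (adjusted p = 5.98e-07), and Nfkb1, an NF-kB subunit gene, by 1.25 ± 0.07 log2 units (adjusted p = 3.35e-06). Mef2c, a muscle transcription factor, fell by 1.06 ± 0.14 log2 units (adjusted p = 3.64e-04). Some of these transcripts moved against a gene that their products are known to raise, and the activity of the products was not measured. Atf4 and Ddit3, factors of the stress response known to raise Fgf21, rose by 0.74 ± 0.09 and 0.69 ± 0.08 log2 units (adjusted p = 1.38e-04 and 1.55e-04), whereas Fgf21 fell. Rela, another NF-kB subunit gene, rose by 0.99 ± 0.08 log2 units (adjusted p = 1.36e-05) while Il15, a gene NF-kB is known to raise, fell.

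Others moved with such a gene. Ppargc1a, the coactivator reported to raise Fndc5, fell to 3.11 ± 0.24 CPM in TNF-alpha libraries, against 6.59 ± 1.33 CPM in vehicle libraries (log2 fold change -1.08 ± 0.17, adjusted p = 6.73e-04). Arntl, encoding the clock factor BMAL1, which is known to act on Nampt, rose by 1.28 ± 0.08 log2 units (adjusted p = 4.08e-06). Irf1, an interferon regulatory factor known to act on Il15, had 55.9, 57.6 and 57.3 CPM in TNF-alpha libraries, against 137, 205 and 73.1 CPM in vehicle libraries. The vehicle libraries were widely spread, and the fall (adjusted p = 0.0261) was lost in 6 of its 14 alternatives, with adjusted p-values of 0.0541 to 0.0748. Hif1a, the oxygen-regulated factor known to raise Apln, rose by 0.38 ± 0.09 log2 units (adjusted p = 0.00732). Of the listed factors not named so far, Esrra rose by 0.56 ± 0.06 log2 units (adjusted p = 1.1e-04), while Ppargc1b and Foxo1 fell. Creb1 (adjusted p = 0.0528), Ppara (0.517) and Clock (0.101) did not pass. Creb1 passed with upper-quartile scaling (0.0267), and Clock without vehicle replicate 3 (0.0364). Atf4, Ddit3, Rela, Ppargc1a, Ppargc1b, Arntl, Irf1, Hif1a, Esrra, Foxo1, Creb1, Ppara and Clock were chosen after their values were seen. Whether any listed factor acted on a member was not tested.

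Among 23 other factors secreted by muscle, 22 were tested, and 11 rose, 5 fell and 6 did not pass. The median log2 fold change was 0.41, against 0.00 over all genes tested, of which 27.6% rose and 27.9% fell. Vegfa, the main vascular growth factor, rose by 2.34 ± 0.13 log2 units (adjusted p = 3.12e-06) and Nrg1, encoding a ligand of ERBB receptors, by 2.68 ± 0.15 log2 units (adjusted p = 3.33e-06). Igf1, the main growth factor of muscle, fell to 0.567, 0.408 and 0.274 CPM in TNF-alpha libraries, against 75.4, 83.4 and 61.2 CPM in vehicle libraries (log2 fold change -7.44 ± 0.23, adjusted p = 5.43e-07). Vegfa and Angptl4 were, like Apln, highest in replicate 3 among the vehicle libraries, at 348 and 54.7 CPM, and Angptl4 was chosen after its values were seen. Other listed genes were lowest in that library, among them Hif1a (127 CPM, against 160 and 161 CPM) and Irf1 (73.1 CPM, against 137 and 205 CPM). A link between these levels was not tested.

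The profile of Il15 over the 6 libraries was compared with those of other genes. Among 13044 genes with a mean of at least 1 CPM, Cdk2ap1, Itgbl1, Sertad4, Ndrg3 and Traf3ip3 had the highest Pearson correlation of log2 CPM with it, at 0.999 to 1. With 2 groups of libraries such values follow the difference between the groups, and 2856 genes had a correlation over 0.9. The 5 genes fell by different amounts, from a log2 fold change of -0.69 for Ndrg3 to -5.2 for Itgbl1.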

How the data were processed

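Polyadenylated RNA of 6 engineered muscle constructs was sequenced in paired-end mode with a stranded kit, per the labels' protocols. The authors deposited 1 table of gene counts, treated here as estimated counts because many of its entries are not whole. The submitters' processing notes name DESeq2, featureCounts, Subread 2.0.0, TopHat2 2.1.1 and Bowtie2 2.3.5.1, and the builds mm10 and GRCm38. No source used here gives the counting options. Library totals were 81713008 to 93533748.

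Estimated counts were rounded to whole numbers. Genes were filtered with filterByExpr of edgeR 4.0.16 (R 4.3.3), scaled with TMM and tested with glmQLFit (robust) and glmQLFTest, with group as the only term, and adjusted over all genes tested. Standard errors come from the F statistic. CPM values are TMM-scaled, and lengths and positions are from GENCODE M21. No pair of replicates was as alike as 1 library sequenced again (chi-square per degree of freedom 22 to 66.9). The procedure was also run on simulated counts, in which far fewer genes changed than were called here and all genes had the same variability. That run does not measure its error rate on these data.

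The members and lists were chosen with earlier results of these data known. Named were the 9 members, in each of 5 lists (82 genes) the 2 lowest p-values on the side with more calls and the lowest on the opposite side, and the 5 genes most like Il15; other names are marked as chosen after their values were seen, and so were Jak1, Stat3, Il2rb, Il2rg, Npr2, Ntrk2 and Apela. Older symbols were used for Chi3l1 (Chil1) and Erfe (Fam132b). The marker Ly6g was not analysed here. The alternatives were scaling by median ratios or upper quartiles, limma-voom (limma 3.58.1), a stricter or no filter on low counts, the DESeq2 1.42.0 test, no robust estimation, the replicate number as a block, and leaving out each library.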

Additional observations from a re-analysis of the deposited data

How the results depend on the processing

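The number of members past the test stayed at 7 under every alternative except limma-voom, which gave 8, and 8 of the 9 members kept their direction and their side of the threshold under each of the alternatives that could test them; the exception was Il15ra. Under the stricter filter Ostn was not tested and Il15ra passed. Leaving out 1 library gave 7 members past the test in each case, 7414 to 8476 genes past it in all, 48 to 56 genes of the 5 lists and a difference in the log2 ratio of Il15 to Il15ra counts of -2.82 to -2.48. Of the 76 tested list genes, 59 kept their call in every alternative that tested them, and no called change reversed. Of 1057 list values, 23 lost and 19 gained a call. With the replicate block 8487 genes passed against 8769 without it, and 7 members. Libraries with the same number did not deviate together (correlations of 0.0399, -0.051 and -0.117), and of the TNF-alpha libraries replicate 1 alone correlated best with the vehicle library of its own number, so the numbers were not taken as pairs. Upper-quartile scaling moved the median log2 fold change of all genes to -0.03 and the share of rises among the calls to 45.8%, against 49.8%. Ostn, Fap, Aplnr and Il15ra rest on few counts, which limits the precision of their changes.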
